A study of Homo sapiens with 12 samples.

Results

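The 32 genes described here encode proteins of the nuclear pore complex. They were chosen by name, as the rows of the gene-level files whose Ensembl identifier maps to a listed nucleoporin symbol. All 32 were found among 60708 gene identifiers, and all 32 were among the 15388 genes abundant enough to be tested. Messenger RNA was measured in 12 libraries of hTERT RPE-1, a line of human retinal pigment epithelial cells made immortal by telomerase. The libraries came from 4 stable lines, each 1 clone, with 3 libraries described as biological replicates per clone. LmnB1_16 and LmnB1_6 overexpressed lamin B1, which forms filaments under the inner nuclear membrane, joined to the red fluorescent protein mCherry, and mCherry_4 and mCherry_3 overexpressed mCherry alone. Cells of all 4 clones grew in hygromycin B and received doxycycline at 0.05 ug/mL for 24 hours. A construct is therefore represented by 2 clones, and p-values over its 6 libraries measure the spread between these libraries and not between independent clones.

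Nuclear pore complexes are the channels through which proteins and RNA cross the nuclear envelope. The Y complex forms the outer rings on both faces of the pore, the inner ring ties them to each other and to the membrane, and nucleoporins rich in phenylalanine-glycine repeats fill the channel with a selective barrier. Filaments on the cytoplasmic side complete messenger RNA export, a basket on the nuclear side meets chromatin, and membrane nucleoporins anchor the pore. Nuclear pores sit within the nuclear lamina, and the basket protein NUP153 is known to bind lamins. The transport factors that use the pore, importins and exportins, are driven by the small GTPase Ran.

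The libraries held 20.6 to 29.5 M estimated counts each. LMNB1, the gene that the construct carries, averaged 3374 CPM (CPM is the count relative to the scaled library size) in LmnB1_16, 3976 CPM in LmnB1_6, 161 CPM in mCherry_4 and 84.98 CPM in mCherry_3, higher in every LmnB1 library than in any mCherry library. The labelled cell type was checked against its markers. Of 10 pigment epithelium markers 3 reached a mean of 1 CPM over the 12 libraries, and RPE65, TYR and TTR had 0 counts in every library. MITF and OTX2, transcription factors of that epithelium, averaged 31.3 and 15.5 CPM in LmnB1_16, 0.059 and 0 CPM in LmnB1_6, 48.97 and 11.1 CPM in mCherry_4 and 58.6 and 12.6 CPM in mCherry_3. Of the listed epithelial markers KRT8, KRT18 and CDH2 were abundant while CDH1 and EPCAM were at most 0.0717 CPM in any library. Summed markers were at most 0.705 CPM for leukocytes, 0.860 CPM for endothelium and 2.41 CPM for muscle in any library. Of the 3 fibroblast markers only PDGFRB reached 1 CPM, and the 3 summed to 45.1 to 48.3 CPM in LmnB1 libraries and 37.8 to 48.6 CPM in mCherry libraries.

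Levels of different genes were compared in TPM, which divides by the effective transcript length. SEC13, which is shared between the Y complex and the coat of vesicles leaving the endoplasmic reticulum, had the highest mean at 183 TPM over the 12 libraries. NUP88, a partner of NUP214 on the cytoplasmic side, followed at 82.1 TPM, and NUP62, an essential protein of the channel, at 77.1 TPM. At the other end stood NUP214 with 15.97 TPM and NUP210 with 5.08 TPM. Neighbours in the order of levels mostly could not be separated, since for 30 of 31 neighbouring pairs the ranges over the 12 libraries overlapped, and the gap was between SEC13 and NUP88. Subunits of the same ring differed in level, as the inner ring ran from 72.4 TPM for NUP93 to 27.7 TPM for NUP155.

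**Figure D1:**
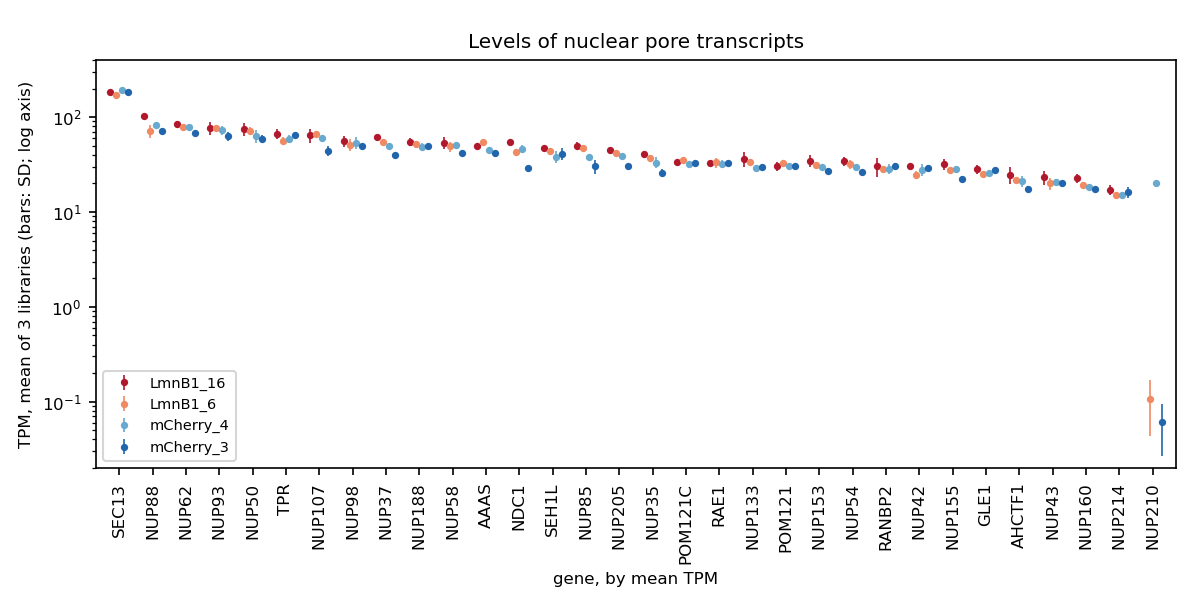
TPM of the 32 nuclear pore genes on a log axis, ordered by mean TPM, with the mean and SD of the 3 libraries of each clone. SEC13 stands highest at a mean of 183 TPM, and NUP210 reaches the range of the other genes in mCherry_4 only (LmnB1_16, at 0, is below the axis).

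The first comparison asked whether nuclear pore transcripts differed between cells with lamin B1 and cells with mCherry alone. In the LmnB1 libraries 10 of the 32 genes were higher and 1 was lower, against 8.58% of all tested genes called higher and 9.25% called lower. The higher genes were NUP85, NUP37, SEH1L and AHCTF1 of the Y complex, NUP35, NUP93, NUP188 and NUP205 of the inner ring, NUP54 of the channel and AAAS of the cytoplasmic side. Their rises were small, between 1.17-fold for NUP188 and 1.38-fold for NUP85. The lower gene was NUP210, a membrane nucleoporin that was high in 1 mCherry clone. The median log2 fold change was 0.21 over the 32 genes and 0.00218 over all tested genes, with 29 of the 32 above 0. A gene was called at an adjusted p under 0.05 in edgeR's quasi-likelihood test, and 5 further genes (NUP107, NUP133, NUP58, NUP50 and NUP153) had adjusted p between 0.05 and 0.1 in that test.

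**Figure D2:**
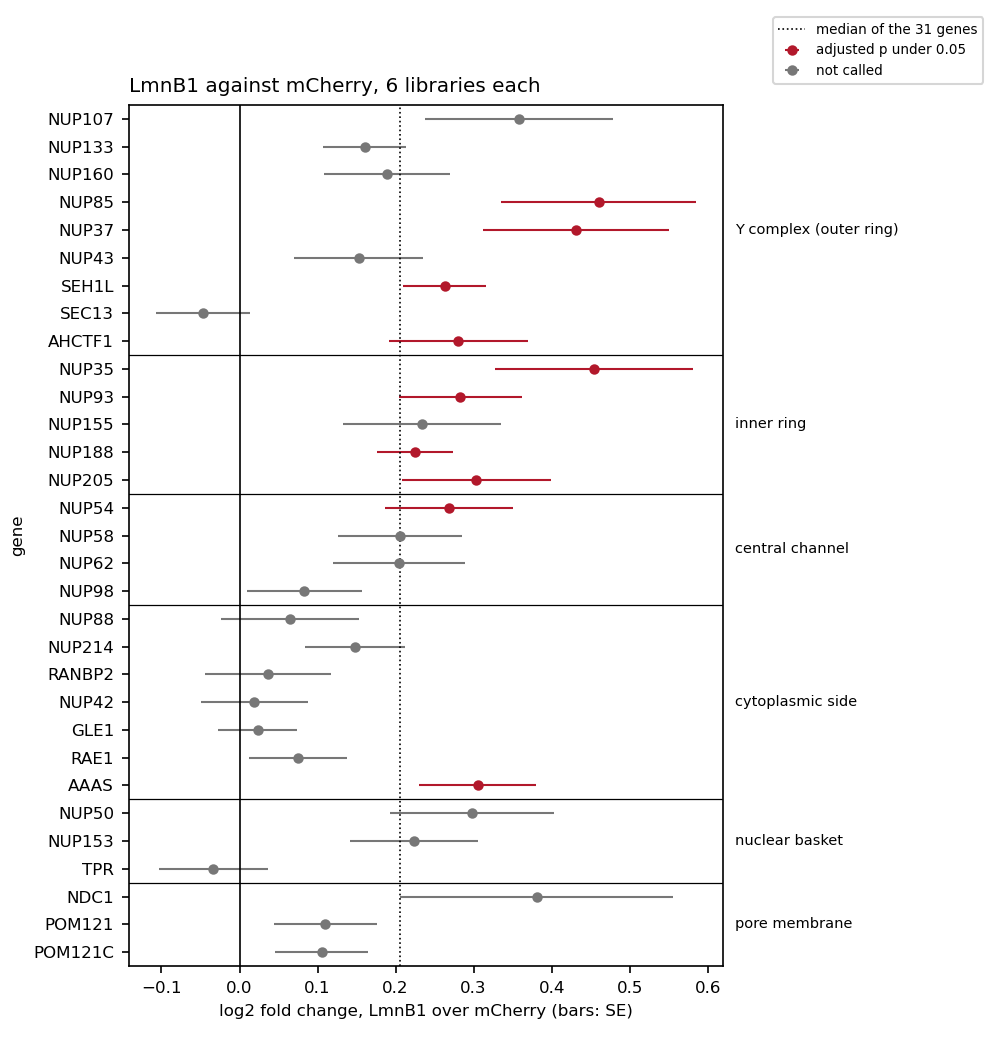
Log2 fold change of LmnB1 over mCherry (6 libraries each) with its SE for the 31 nuclear pore genes other than NUP210, grouped by place in the pore. Coloured points mark the 10 genes called higher, and 8 of them belong to the Y complex and the inner ring.

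These calls depended on the mCherry_3 clone and on single libraries. With mCherry_3 left out, 0 of the 32 genes were called higher by edgeR (8 of the 32 had an unadjusted p under 0.05, either way), against 268 of all genes. With mCherry_4 left out, 19 of the 32 were called higher, against 2592 of all genes. Without LmnB1_6 there were 2, against 509 of all genes, and without LmnB1_16 there were 6, against 2146. With all libraries 1320 of all genes were called higher. Leaving out LmnB1_6 replicate 1 gave 4 genes higher (701 of all genes), and LmnB1_6 replicate 2 gave 3 (668 of all). LmnB1_16 replicate 3 gave 6 (1237 of all), and mCherry_3 replicates 1, 2 and 3 gave 4, 3 and 3 (694, 682 and 619 of all). Leaving out mCherry_4 replicate 2 gave 16 (1498 of all genes). The higher calls over all genes thus fell or rose in the same fits, from 619 to 1498 without 1 library. SEH1L alone was called both without LmnB1_6 and without LmnB1_16, at log2 fold changes of 0.29 and 0.24. When TPM with limma replaced counts with edgeR, SEH1L and NUP188 were not called, while AAAS, NUP205, NUP35, NUP37 and NUP85 were called higher. When the clone was the unit of replication, either with counts summed per clone or with clone as a random effect, 0 of the 32 genes were called, and 0 and 10 of them had an unadjusted p under 0.05. Of all tested genes 0 were called with summed counts (642 with an unadjusted p under 0.05), and 59 higher and 104 lower with clone as a random effect.

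**Figure D3:**
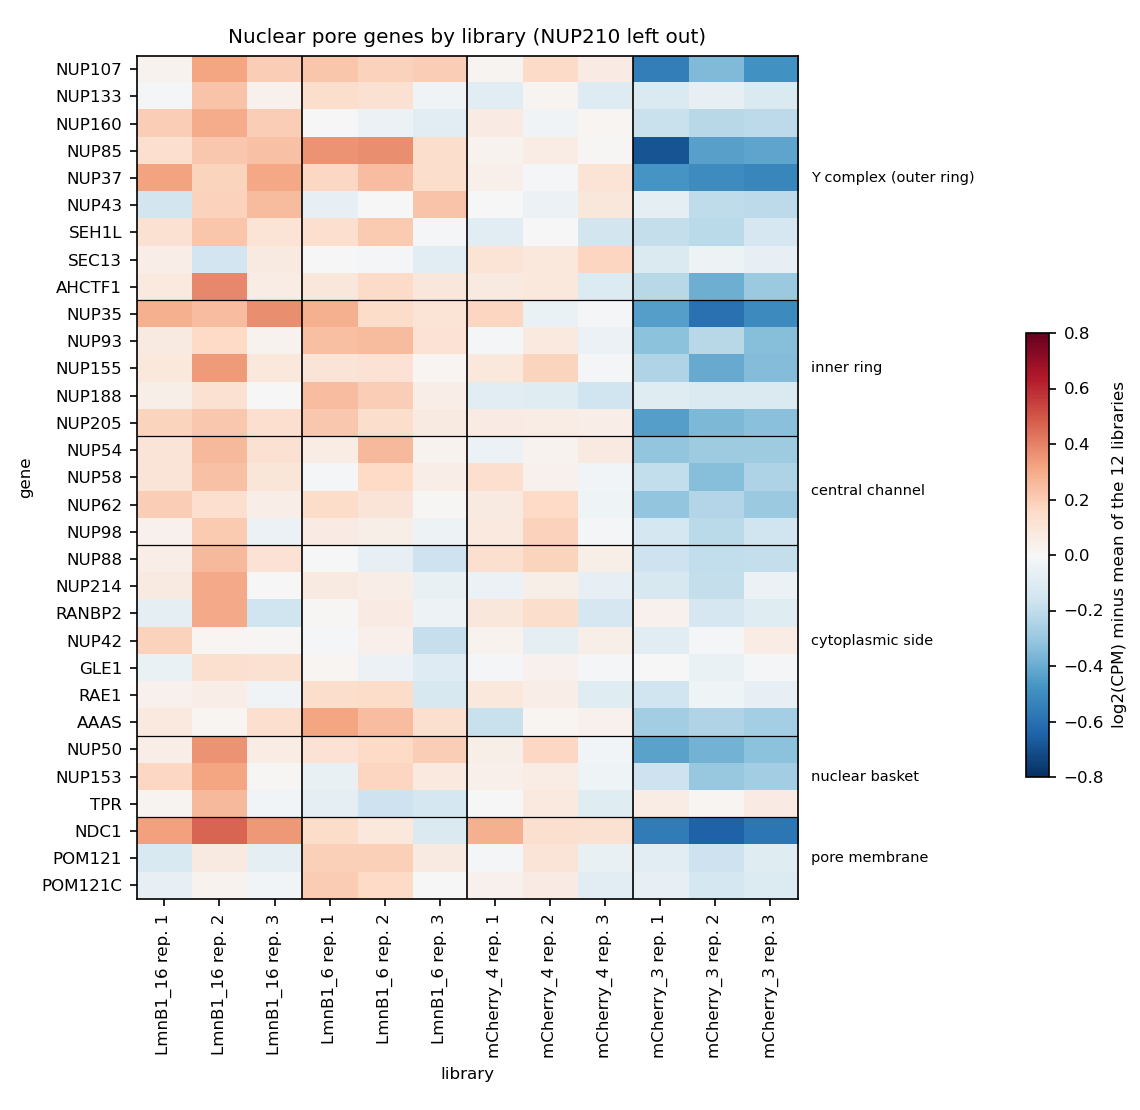
Log2 CPM of 31 nuclear pore genes in each of the 12 libraries, relative to the mean of the gene over all libraries, with clones in blocks of 3 libraries. The block of mCherry_3 is blue for most genes of the Y complex, inner ring and channel, and LmnB1_16 replicate 2 holds the highest value of 17 genes.

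mCherry_3 was the low clone for most nuclear pore genes. It had the lowest mean for 27 of the 32 genes, against 31.9% of all tested genes. It had the highest mean for 0 of the 32, against 31.4% of all tested genes. LmnB1_16 had the highest mean for 20 genes, LmnB1_6 for 8 and mCherry_4 for 4. Of all tested genes 21.7%, 30.3% and 16.6% had their highest mean in LmnB1_16, LmnB1_6 and mCherry_4. Without NUP210, the 31 remaining genes summed to 3132 to 3512 CPM in LmnB1_16, 3034 to 3232 CPM in LmnB1_6, 2952 to 3188 CPM in mCherry_4 and 2589 to 2653 CPM in mCherry_3. The ranges of LmnB1_16, LmnB1_6 and mCherry_4 overlapped, and mCherry_3 lay below all of them. One library stood apart in the other direction, as LmnB1_16 replicate 2 was the highest of the 12 libraries for 17 of the 32 genes, against 12.2% of all tested genes. Without it 7 genes were called higher and 1 lower between the constructs, where 1350 and 1449 of all tested genes were called.

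Transcripts of dividing cells moved with this pattern. The 20 listed genes of mitosis summed to 4339 to 5021 CPM in LmnB1_16, 3964 to 4551 CPM in LmnB1_6, 3956 to 4411 CPM in mCherry_4 and 1980 to 2180 CPM in mCherry_3. The 20 listed genes of DNA replication summed to 3421 to 3558 CPM in LmnB1_16, 2937 to 3428 CPM in LmnB1_6, 3016 to 3178 CPM in mCherry_4 and 2135 to 2401 CPM in mCherry_3. In edgeR's test between the constructs 1 of 20 mitosis genes was called higher (TTK, a kinase of the spindle checkpoint) and 9 of 20 replication genes, 0 being called lower in either list. Of all tested genes 8.58% were called higher and 9.25% lower. The replication genes called at the smallest adjusted p were MCM5 and MCM7 of the replicative helicase, PCNA, the sliding clamp of DNA polymerases, and UNG, a repair glycosylase, at log2 fold changes of 0.49, 0.53, 0.30 and 0.47. In mCherry_4 against mCherry_3 all 20 mitosis genes were called higher, against 19.9% of all tested genes. The part of cell division in the nucleoporin levels was not tested, and in bulk RNA fewer dividing cells and less RNA per cell cannot be told apart.

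In 4 genes every LmnB1 library lay above every mCherry library, which was so for 3.8% of all tested genes. These were NUP85, NUP37, NUP188 and NUP205. No nuclear pore gene had every LmnB1 library below every mCherry library, against 4.85% of all tested genes. The promoters of these 4 genes and of NUP210, the gene called lower, are shown. Each is the 250 bases before the annotated start, 5′ to 3′ on the strand of the gene, from RefSeq on GRCh38.p14, at chr17:75205429-75205678, plus strand for NUP85, chr12:102120115-102120364, minus strand for NUP37, chr9:128947449-128947698, plus strand for NUP188, chr7:135557667-135557916, plus strand for NUP205 and chr3:13420323-13420572, minus strand for NUP210. Capitals mark motifs matched on either strand. An ETS match is CCGGAAG. The box named CCAAT is those letters, the SP1 match is GGGCGG and the cell cycle homology region (CHR) is TTTGAA. An E2F match is TTTNNCGC, and the core of the NRF1 site is GCATGCG.
NUP85 promoter: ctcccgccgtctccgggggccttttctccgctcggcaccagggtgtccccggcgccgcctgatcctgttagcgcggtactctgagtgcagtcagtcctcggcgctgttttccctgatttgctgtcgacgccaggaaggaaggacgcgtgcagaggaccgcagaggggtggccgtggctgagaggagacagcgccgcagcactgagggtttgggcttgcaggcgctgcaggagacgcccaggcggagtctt
NUP37 promoter: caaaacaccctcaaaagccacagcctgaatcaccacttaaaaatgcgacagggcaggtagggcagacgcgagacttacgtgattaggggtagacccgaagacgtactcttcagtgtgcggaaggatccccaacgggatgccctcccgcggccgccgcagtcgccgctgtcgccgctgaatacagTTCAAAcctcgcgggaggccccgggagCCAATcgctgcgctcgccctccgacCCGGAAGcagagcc
NUP188 promoter: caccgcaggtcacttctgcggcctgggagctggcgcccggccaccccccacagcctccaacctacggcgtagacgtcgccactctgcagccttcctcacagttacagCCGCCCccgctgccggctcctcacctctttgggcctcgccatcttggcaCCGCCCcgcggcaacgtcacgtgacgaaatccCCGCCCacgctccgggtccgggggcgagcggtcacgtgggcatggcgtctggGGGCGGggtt
NUP205 promoter: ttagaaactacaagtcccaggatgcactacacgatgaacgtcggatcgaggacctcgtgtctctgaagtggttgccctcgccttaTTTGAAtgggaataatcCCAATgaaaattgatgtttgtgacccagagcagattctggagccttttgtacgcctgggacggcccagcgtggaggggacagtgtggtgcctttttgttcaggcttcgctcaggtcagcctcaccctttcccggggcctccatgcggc
NUP210 promoter: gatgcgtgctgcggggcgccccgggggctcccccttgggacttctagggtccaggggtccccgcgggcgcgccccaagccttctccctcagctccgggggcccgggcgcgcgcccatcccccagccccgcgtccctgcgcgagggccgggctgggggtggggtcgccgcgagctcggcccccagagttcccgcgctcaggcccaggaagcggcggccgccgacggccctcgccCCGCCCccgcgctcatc

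No motif was held by all of the printed promoters. NUP37 held CHR, CCAAT and ETS matches, NUP188 held 4 SP1 matches, NUP205 held CHR and CCAAT matches, NUP210 held 1 SP1 match, and NUP85 held none in the printed bases. Promoters were listed for 29 of the 32 genes, all but AHCTF1, NUP43 and GLE1, and were searched over 300 bases (250 before and 50 after the start). An ETS match was held by 13 of 29 (44.8%), against 12.2% of 27305 genes in the table and 21.8% of the 11101 of these that were tested. E2F matches were held by 4 (13.8%, against 8.23% of all and 12.8% of tested genes), CHR matches by 8 (27.6%, against 18.2% and 13.8%) and NRF1 matches by 3 (10.3%, against 4.74% and 7.70%). CCAAT was held by 11 (37.9%, against 39.7% and 43.0%) and SP1 by 14 (48.3%, against 48.3% and 76.1%). The CpG dinucleotides per window had a median of 27 in the nuclear pore genes, 26 in tested genes and 14 in all genes, and NUP210 had 42. These matches are descriptions of letters and not of binding.

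The Y complex, the scaffold of the outer rings, had 4 of 9 genes called higher in the LmnB1 libraries and 0 lower, with a median log2 fold change of 0.26. Beside this count and those of the other parts of the pore stand 8.58% of all tested genes called higher and 9.25% lower. Differences between the parts were not tested. NUP85 (ENSG00000125450.11, chromosome 17, 75205659 to 75235758, plus strand, GRCh38), a structural arm of the Y, measured 49.3, 52.0 and 52.8 CPM in LmnB1_16, 57.5, 57.9 and 49.3 CPM in LmnB1_6, 45.7, 46.7 and 45.1 CPM in mCherry_4 and 27.7, 33.1 and 33.4 CPM in mCherry_3. Its LmnB1 libraries lay above those of mCherry_4, and mCherry_3 lay lower still. By construct NUP85 averaged 53.1 ± 3.80 CPM in LmnB1 libraries and 38.6 ± 8.16 CPM in mCherry libraries (SD, n = 6 each), log2 fold change 0.46, SE 0.12, edgeR adjusted p = 0.0263. NUP37 (ENSG00000075188.9, chromosome 12, 102073103 to 102120124, minus strand), a small propeller protein of the Y complex, measured 35.9, 32.5 and 35.6 CPM in LmnB1_16, 32.2, 34.1 and 31.6 CPM in LmnB1_6, 29.5, 28.4 and 30.97 CPM in mCherry_4 and 20.7, 20.3 and 20.02 CPM in mCherry_3. Again mCherry_3 was lowest and the closest libraries were LmnB1_6 replicate 3 and mCherry_4 replicate 3. NUP37 averaged 33.7 ± 1.83 CPM in LmnB1 libraries and 24.99 ± 5.16 CPM in mCherry libraries (SD, n = 6 each), log2 fold change 0.43, SE 0.12, edgeR adjusted p = 0.0282.

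SEH1L, a Y complex subunit that also serves nutrient signalling at lysosomes, measured 81.4, 87.5 and 80.8 CPM in LmnB1_16, 82.3, 86.5 and 74.2 CPM in LmnB1_6, 70.2, 74.6 and 67.7 CPM in mCherry_4 and 65.5, 64.4 and 68.3 CPM in mCherry_3. The constructs overlapped only through LmnB1_6 replicate 3 and mCherry_4 replicate 2, and the difference had the smallest adjusted p of the 32 genes (log2 fold change 0.26, SE 0.053, edgeR adjusted p = 0.00820). AHCTF1, also known as ELYS, the protein that brings the Y complex to chromatin after mitosis, measured 125, 154 and 122.9 CPM in LmnB1_16, 126, 131 and 125 CPM in LmnB1_6, 124, 125 and 109 CPM in mCherry_4 and 101, 89.8 and 96.0 CPM in mCherry_3. The LmnB1 and mCherry_4 libraries overlapped (log2 fold change 0.28, SE 0.089, edgeR adjusted p = 0.0467). AHCTF1 is uncertain because 57.4% of the 31-base words of its longest annotated transcript also occur in other genes, mostly in the pseudogene AHCTF1P1, which stood at clone means of 0.259 to 0.455 CPM.

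NUP107, NUP133, NUP160, NUP43 and SEC13 were not called between the constructs, at log2 fold changes of 0.36, 0.16, 0.19, 0.15 and −0.05. NUP107, the stem subunit that joins NUP133 to the rest, averaged well under the other clones in mCherry_3, where its libraries were at 46.5 to 53.4 CPM against at least 69.1 CPM in every other library. NUP160, the other arm of the Y, measured 70.4, 75.4 and 70.3 CPM in LmnB1_16, 61.5, 59.4 and 57.8 CPM in LmnB1_6, 64.1, 60.2 and 61.9 CPM in mCherry_4 and 54.3, 52.7 and 53.1 CPM in mCherry_3. It was high in LmnB1_16 and did not separate LmnB1_6 from mCherry_4. SEC13 measured 143, 124 and 145 CPM in LmnB1_16, 138, 137 and 129.8 CPM in LmnB1_6, 149, 146 and 155 CPM in mCherry_4 and 127, 135 and 132 CPM in mCherry_3. Its highest libraries were the 3 of mCherry_4.

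The inner ring had 4 of 5 genes called higher and 0 lower, with a median log2 fold change of 0.28. NUP35, which touches the pore membrane, measured 23.6, 23.1 and 25.1 CPM in LmnB1_16, 23.7, 21.5 and 21.0 CPM in LmnB1_6, 21.9, 18.8 and 19.3 CPM in mCherry_4 and 14.3, 12.9 and 13.7 CPM in mCherry_3. LmnB1_6 replicates 2 and 3 lay below mCherry_4 replicate 1, and mCherry_3 was below all other libraries (log2 fold change 0.45, SE 0.13, edgeR adjusted p = 0.0299). NUP93, the linker that holds the ring together, measured 89.1, 94.7 and 86.5 CPM in LmnB1_16, 100.1, 101 and 91.8 CPM in LmnB1_6, 84.1, 89.5 and 82.2 CPM in mCherry_4 and 67.6, 72.6 and 66.8 CPM in mCherry_3. mCherry_4 replicate 2 reached into the LmnB1_16 range (log2 fold change 0.28, SE 0.079, edgeR adjusted p = 0.0293).

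NUP188 (ENSG00000095319.14, chromosome 9, 128947699 to 129007096, plus strand), a large scaffold protein, measured 176, 186 and 171 CPM in LmnB1_16, 203, 196 and 177 CPM in LmnB1_6, 161, 159.6 and 153 CPM in mCherry_4 and 159.5, 158 and 158 CPM in mCherry_3. Among the 10 higher genes its mCherry clones were closest to each other (log2 fold change −0.01 in mCherry_4 against mCherry_3), and it averaged 185 ± 12.4 CPM in LmnB1 libraries and 158 ± 2.89 CPM in mCherry libraries (SD, n = 6 each), log2 fold change 0.22, SE 0.049, edgeR adjusted p = 0.0109. NUP205 (ENSG00000155561.15, chromosome 7, 135557919 to 135648757, plus strand), the paralog of NUP188, measured 173, 178 and 168 CPM in LmnB1_16, 177, 168 and 161 CPM in LmnB1_6, 159.6, 159 and 159 CPM in mCherry_4 and 113, 119 and 121 CPM in mCherry_3. The gap to the nearest mCherry_4 library was small beside the gap to mCherry_3, and NUP205 averaged 171 ± 6.59 CPM in LmnB1 libraries and 138 ± 23.1 CPM in mCherry libraries (SD, n = 6 each), log2 fold change 0.30, SE 0.10, edgeR adjusted p = 0.0453. NUP155, which joins the ring to the membrane, was not called at a log2 fold change of 0.23 (SE 0.10, edgeR adjusted p = 0.124).

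Of the 4 channel genes, 1 was called higher and 0 lower, with a median log2 fold change of 0.21. NUP54, which forms a trimer with NUP58 and NUP62, measured 40.6, 45.2 and 41.1 CPM in LmnB1_16, 39.4, 45.2 and 38.5 CPM in LmnB1_6, 36.7, 38.6 and 39.8 CPM in mCherry_4 and 30.4, 31.1 and 31.1 CPM in mCherry_3. The LmnB1 and mCherry_4 libraries overlapped and mCherry_3 was lowest (log2 fold change 0.27, SE 0.082, edgeR adjusted p = 0.0415). NUP58, NUP62 and NUP98, the last a mobile repeat protein that also binds chromatin, had log2 fold changes of 0.21, 0.20 and 0.08 and were not called. NUP62 is uncertain, since 35.4% of its 31-base words occur in other genes, among them ATF5 on the opposite strand of the same locus, and whether counting used the strand was not given in the sources used here. ATF5, a stress-response transcription factor, was lower in the LmnB1 libraries by edgeR's test (log2 fold change −0.26, SE 0.075, edgeR adjusted p = 0.0342). Against mCherry_4 it was called lower in LmnB1_16 (edgeR adjusted p = 0.0297) and not in LmnB1_6 (edgeR adjusted p = 0.290).

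On the cytoplasmic side 1 of 7 genes was called higher and 0 lower, with a median log2 fold change of 0.065. AAAS, also called aladin, the protein altered in triple A syndrome, measured 49.1, 47.0 and 51.1 CPM in LmnB1_16, 57.8, 55.0 and 50.7 CPM in LmnB1_6, 41.0, 47.0 and 47.5 CPM in mCherry_4 and 38.3, 39.3 and 38.5 CPM in mCherry_3. LmnB1_6 was the highest clone, and LmnB1_16 replicate 2 overlapped with mCherry_4 (log2 fold change 0.31, SE 0.075, edgeR adjusted p = 0.0185). The other six had log2 fold changes of 0.02 to 0.15 and were not called. They are NUP214 and NUP88, which form a subcomplex, RANBP2, the large filament protein that holds SUMO-modified RANGAP1, and the export factors GLE1, NUP42 and RAE1. NUP88 measured 78.3, 90.5 and 81.8 CPM in LmnB1_16, 75.8, 72.4 and 67.4 CPM in LmnB1_6, 82.8, 85.4 and 78.1 CPM in mCherry_4 and 67.5, 65.8 and 66.3 CPM in mCherry_3. The values of NUP88 overlapped between the constructs. NUP214 measured 67.8, 79.9 and 64.4 CPM in LmnB1_16, 68.0, 67.1 and 62.0 CPM in LmnB1_6, 62.6, 66.7 and 61.8 CPM in mCherry_4 and 59.2, 56.5 and 62.6 CPM in mCherry_3. LmnB1_16 replicate 2 stood well above the rest. NUP88, RANBP2 and NUP42 are uncertain, as 16.98%, 32.6% and 29.4% of their 31-base words occur in other genes, for RANBP2 in its duplicated relatives such as RGPD3.

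The nuclear basket had 0 of 3 genes called by edgeR in either direction. NUP50 and NUP153, which release import cargo, had log2 fold changes of 0.30 (edgeR adjusted p = 0.0654) and 0.22 (edgeR adjusted p = 0.0743), and NUP50 is uncertain with 21.0% of its 31-base words shared. TPR, the filament of the basket, had −0.03 and was the only basket gene whose lowest clone mean was not in mCherry_3.

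Of the 4 membrane genes, NUP210 was called lower and 0 were called higher. NDC1, which is needed to insert pores into the envelope, measured 136, 149 and 138 CPM in LmnB1_16, 120.0, 115 and 100.1 CPM in LmnB1_6, 132, 118 and 118 CPM in mCherry_4 and 73.4, 69.2 and 72.4 CPM in mCherry_3. LmnB1_16 was highest and mCherry_3 lowest, with LmnB1_6 and mCherry_4 overlapping, so the difference between constructs was within the spread of the libraries (log2 fold change 0.38, SE 0.17, edgeR adjusted p = 0.143). POM121 and POM121C, related copies on chromosome 7 that anchor the pore, had log2 fold changes of 0.11 and 0.11 and were not called. These copies are uncertain as separate genes, since 75.9% and 74.4% of their 31-base words occur in other genes (32.55% of those of POM121 in POM121C and 64.6% of those of POM121C in POM121).

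NUP210 (ENSG00000132182.12, chromosome 3, 13316235 to 13420309, minus strand, GRCh38), also called gp210, is a membrane glycoprotein of the pore with a large domain in the lumen of the envelope, and its level is known to differ between tissues. It had 0, 0 and 0 counts in LmnB1_16, 4, 14 and 21 counts in LmnB1_6, 2218, 2352 and 2209 counts in mCherry_4 and 8, 3 and 11 counts in mCherry_3. In CPM this was 0, 0 and 0 CPM in LmnB1_16, 0.171, 0.687 and 0.705 CPM in LmnB1_6, 100.1, 98.2 and 93.6 CPM in mCherry_4 and 0.304, 0.107 and 0.407 CPM in mCherry_3. NUP210 was thus expressed in 1 of the 4 clones, and in the other three it was at or near 0. In TPM mCherry_4 stood at 20.2 ± 0.846 (SD, n = 3), within the range of the other nuclear pore genes.

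Against mCherry_4, NUP210 was at least 2210-fold lower in LmnB1_16, taking 3 counts over its 3 libraries as the limit that a count of 0 allows (0.044 CPM, counting error only). On pooled counts mCherry_4 was 183-fold above LmnB1_6 and 359-fold above mCherry_3. The fitted log2 fold changes were −7.51 in LmnB1_6 against mCherry_4 (SE 0.21, edgeR adjusted p = 1.21e-12) and 8.46 in mCherry_4 against mCherry_3 (SE 0.23, edgeR adjusted p = 6.52e-12). Between LmnB1_6 and mCherry_3 NUP210 had a log2 fold change of 0.95 (SE 0.47, edgeR adjusted p = 0.103). The call between constructs (log2 fold change −7.46, SE 1.74, edgeR adjusted p = 0.0149) came from mCherry_4. Without that clone the log2 fold change was −0.04 and NUP210 was not called, and it was also not called without LmnB1_16 or without LmnB1_6.

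Within 250 kb of NUP210 lay 7 other annotated genes, of which 2 were tested. IQSEC1, an exchange factor for ARF GTPases, averaged 40.4 CPM in LmnB1_16, 47.9 CPM in LmnB1_6, 42.6 CPM in mCherry_4 and 55.6 CPM in mCherry_3. HDAC11, a histone deacetylase, averaged 9.28 CPM in LmnB1_16, 13.5 CPM in LmnB1_6, 10.8 CPM in mCherry_4 and 12.8 CPM in mCherry_3. Neither was highest in mCherry_4, and the other five (FBLN2, LINC00620, HDAC11-AS1 and 2 pseudogenes) had at most 8 counts over all libraries.

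**Figure D4:**
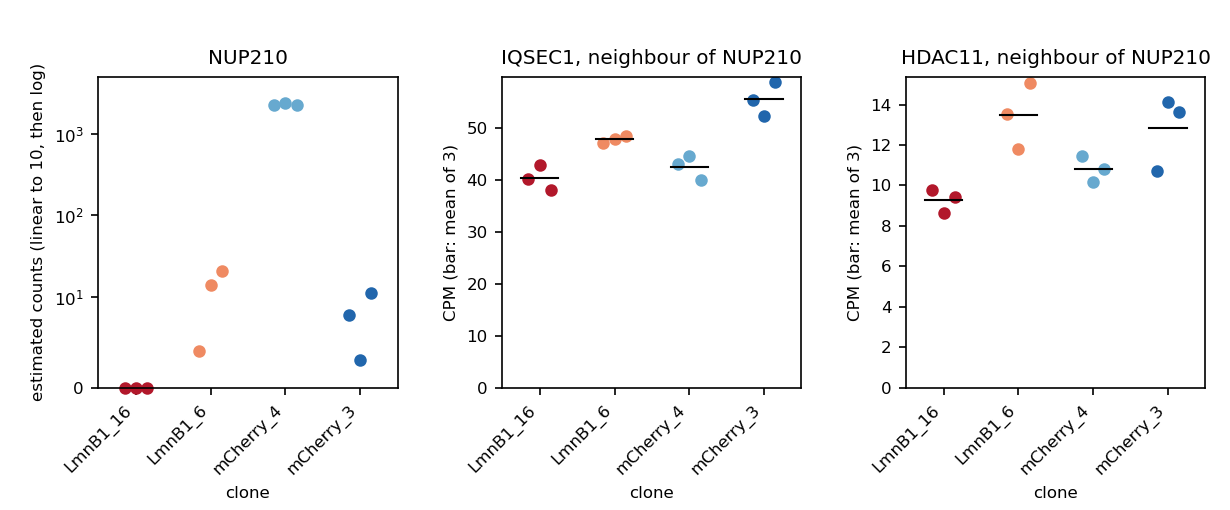
Estimated counts of NUP210 in each library (left, axis linear up to 10 and logarithmic above), and CPM of its tested neighbours IQSEC1 and HDAC11 with clone means as bars. NUP210 has 2209 or more counts in each mCherry_4 library and at most 21 in any other, while both neighbours were expressed in all 4 clones.

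Each LmnB1 clone was then set against each mCherry clone, in a model with the 4 clones as groups. These contrasts share libraries, so their values are given side by side and their likeness is not a result. Against mCherry_4, LmnB1_16 had 3 of the 32 genes called higher and 1 lower (NUP210), where 6.67% and 9% of all tested genes were called, and the median log2 fold change was 0.097. The 3 higher genes were SEH1L (log2 fold change 0.23, edgeR adjusted p = 0.024), NUP37 (0.23, edgeR adjusted p = 0.0361) and NUP160 (0.21, edgeR adjusted p = 0.0144), all of the Y complex. LmnB1_6 against mCherry_4 had 5 higher and 2 lower, where 17.1% and 20.1% of all tested genes were called, with a median of 0.043. The 5 were NUP188 (0.28, edgeR adjusted p = 0.00103), AAAS (0.27, edgeR adjusted p = 0.0065), NUP85 (0.26, edgeR adjusted p = 0.0172), NUP93 (0.19, edgeR adjusted p = 0.0192) and SEH1L (0.19, edgeR adjusted p = 0.0298), and the 2 lower genes were NUP210 and NUP88 (−0.19, edgeR adjusted p = 0.0289).

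Against mCherry_3 the counts were larger. LmnB1_16 had 23 of the 32 genes called higher and 1 lower, where 22.5% and 22% of all tested genes were called, and the median log2 fold change was 0.34. The lower gene was NUP210, at or near 0 in both clones, with 0 counts in LmnB1_16 and 22 in mCherry_3. On the limit of 3 counts it was at least 6.16-fold lower. The largest rises were of NDC1 (0.98, edgeR adjusted p = 2.00e-08), NUP35 (0.82, edgeR adjusted p = 1.73e-06) and NUP37 (0.77, edgeR adjusted p = 2.63e-07). LmnB1_6 against mCherry_3 had 22 higher and 1 lower (TPR, −0.17, edgeR adjusted p = 0.0472), where 26% and 26.8% of all tested genes were called, and the median was 0.30. Here NUP85 (0.80, edgeR adjusted p = 3.95e-07), NUP35 (0.69, edgeR adjusted p = 5.87e-06) and NUP37 (0.68, edgeR adjusted p = 5.85e-07) rose most among the called genes. On the cytoplasmic side 3 of 7 genes were called higher in LmnB1_16 and 1 of 7 in LmnB1_6, while all 5 inner ring and all 4 channel genes were called higher in each of these contrasts with mCherry_3.

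**Figure D5:**
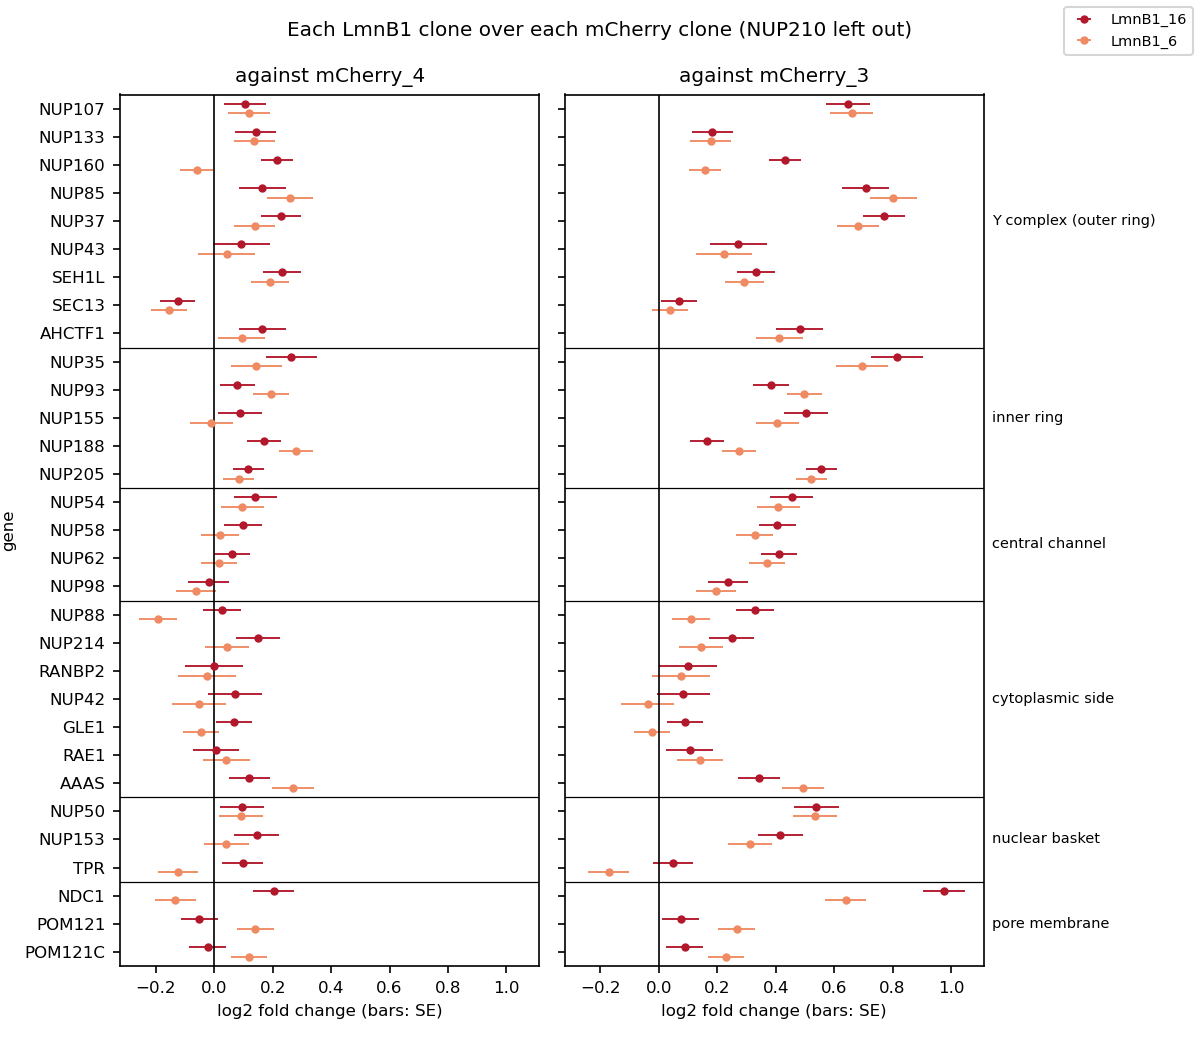
Log2 fold change with its SE of LmnB1_16 and LmnB1_6 over mCherry_4 (left) and over mCherry_3 (right) for 31 nuclear pore genes grouped by place in the pore. Values against mCherry_4 lie between −0.19 and 0.28, and those against mCherry_3 reach 0.98.

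The clones of one construct also differed. In mCherry_4 against mCherry_3, 20 of the 32 genes were called higher and 0 lower, where 19.9% and 17.4% of all tested genes were called, and the median log2 fold change was 0.26. After NUP210 the largest differences were those of NDC1 (0.77, SE 0.071, edgeR adjusted p = 3.88e-07) and NUP35 (0.55, SE 0.089, edgeR adjusted p = 0.000143). In LmnB1_16 against LmnB1_6, 4 genes were called higher and 2 lower, where 17.8% and 16.6% of all tested genes were called. NDC1 (0.34, edgeR adjusted p = 0.00117), NUP160 (0.27, edgeR adjusted p = 0.000958), TPR (0.22, edgeR adjusted p = 0.0205) and NUP88 (0.22, edgeR adjusted p = 0.0156) were higher in LmnB1_16, and POM121 (−0.19, edgeR adjusted p = 0.0261) was lower. NUP210 was at least 12.1-fold lower in LmnB1_16 than in LmnB1_6, on the same limit of 3 counts.

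Several of these counts moved when TPM with limma replaced counts with edgeR, which changes both the values and the test. On TPM with limma, 15 nuclear pore genes were called either way in LmnB1_16 against mCherry_3, 11 in LmnB1_6 against mCherry_3 and 8 in mCherry_4 against mCherry_3, compared with 24, 23 and 20 on counts with edgeR. The split over all genes also moved, to 2094 higher and 3421 lower, 2318 and 4633, and 1411 and 3279 on TPM with limma, against 3455 and 3383, 3997 and 4125, and 3067 and 2685 on counts with edgeR. In LmnB1_16 against mCherry_4 it was 763 higher and 678 lower on TPM with limma, against 1026 and 1385 on counts with edgeR. The median of all genes on TPM was −0.12 in LmnB1_6 against mCherry_3 and −0.11 in mCherry_4 against mCherry_3.

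Genes that act with the pore were counted from lists chosen by name, and these counts stand beside 8.58% of all tested genes called higher and 9.25% called lower. Of 18 importins, 5 were called higher and 1 lower between the constructs, with a median log2 fold change of 0.13. IPO4, an importer of histones, rose by 0.27 (edgeR adjusted p = 0.0195), KPNA3, a cargo adaptor, by 0.23 (edgeR adjusted p = 0.0414) and TNPO2, a transportin, by 0.19 (edgeR adjusted p = 0.0352), while the adaptor KPNA1 fell by 0.23 (edgeR adjusted p = 0.0109). In LmnB1_16 against mCherry_4, 0 of the 18 importins were called higher and 1 lower (6.67% and 9% of all tested genes). LmnB1_6 against mCherry_4 had 1 higher, TNPO2, and 3 lower (17.1% and 20.1% of all tested genes). In mCherry_4 against mCherry_3, 10 importins were called higher, IPO4 and KPNA3 among them, and 2 lower (19.9% and 17.4% of all tested genes). Of 7 exportins 1 was called higher. XPO1, the main exporter of proteins with leucine-rich signals, averaged 409.8 CPM in LmnB1_16, 439 CPM in LmnB1_6, 352 CPM in mCherry_4 and 278 CPM in mCherry_3 (log2 fold change 0.43, SE 0.085, edgeR adjusted p = 0.0072).

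The Ran cycle was represented by 7 genes, of which 1 was called higher. RCC1, the exchange factor that charges Ran on chromatin, averaged 115 CPM in LmnB1_16, 143 CPM in LmnB1_6, 103 CPM in mCherry_4 and 64.2 CPM in mCherry_3 (by edgeR, log2 fold change 0.63 with SE 0.15 and adjusted p = 0.0185). Among the 16 listed mRNA export genes 6 were called higher and 0 lower, with a median of 0.12. They included the THO complex genes THOC3 (0.70, edgeR adjusted p = 0.0164) and THOC5 (0.30, edgeR adjusted p = 0.00607) and the RNA helicases DDX39A (0.74, edgeR adjusted p = 0.0228) and DDX39B (0.28, edgeR adjusted p = 0.0137). In LmnB1_16 against mCherry_4, 2 of the 16 export genes were called higher, THOC5 and DDX39B (6.67% of all tested genes). THOC3, DDX39A and RCC1 were not called there (edgeR adjusted p = 0.308, 0.166 and 0.0884). LmnB1_6 against mCherry_4 had 6 export genes higher (17.1% of all tested genes), and mCherry_4 against mCherry_3 had 7 (19.9%). For XPO1, RCC1, THOC5, DDX39B and DDX39A every LmnB1 library lay above every mCherry library, which was so for 3.8% of all tested genes. These genes were named for their adjusted p in the same libraries, so their separation is not further evidence.

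The 5 basket partners and the 10 genes of pore assembly and quality control had 0 calls in either direction by edgeR between the constructs. Their medians were 0.21 and −0.072, and all 10 of the second list were below 0. MAD2L1, a spindle checkpoint protein, had 0.51 (edgeR adjusted p = 0.0508), and SENP2, a SUMO protease at the basket, had −0.11 (edgeR adjusted p = 0.313). VPS4A, an ATPase of envelope repair, had −0.00344 (edgeR adjusted p = 0.973), and TOR1AIP2, an activator of torsin ATPases, had −0.32 (edgeR adjusted p = 0.102).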

How the data were processed

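For each library the authors deposited estimated counts and TPM per gene, with lengths, per the file headers. STAR, Salmon and DESeq2 are named in the submitters' processing notes without versions, with GRCh38 (hg38) as the build. Library strand and the annotation release were not given in the sources used here. Between 31.3% and 32.6% of detected genes had fractional estimated counts as deposited, and these were rounded before testing. The TPM that the authors deposited served for levels between genes and as an alternative with limma 3.58.1, as log2(TPM + 0.5).

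Of 60708 identifiers 60696 had a symbol and 58440 matched GENCODE 29, which gives the positions. Genes kept by filterByExpr, grouped by clone (minimum count 10, minimum total 15), made up at least 99.9% of the counts of every library. TMM factors (0.948 to 1.06) scaled the counts, which were tested two-sided with edgeR 4.0.16 in R 4.3.3 (glmQLFit, glmQLFTest), with Benjamini-Hochberg adjustment over all 15388 tested genes. The construct model set 6 LmnB1 against 6 mCherry libraries (biological coefficient of variation 0.262), and a clone model with 4 groups (0.0842) gave 6 contrasts. SE is the log2 fold change over the root of the F statistic. No libraries of a clone matched within sampling noise. The test was run on simulated counts that held the spread within clones only, so differences between clones were not part of that check.

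The genes, their grouping by place in the pore and the other lists were chosen with earlier results of these data known. Values of every library are given for genes called between the constructs, for genes whose libraries separate the constructs, for the 3 largest differences within each construct and for the 2 highest and 2 lowest mean TPM. Of each other list the text names up to 4 called genes by smallest adjusted p, or the 2 most abundant where none was called. ATF5, AHCTF1P1, RPAIN and genes near NUP210 are named for their shared sequence or position, and members named in the clone contrasts beyond this rule were chosen after their values were seen. For each gene, the share of 31-base words was counted over its longest GENCODE 29 transcript, against the transcripts of all other genes. Promoters are from RefSeq on GRCh38.p14. Protein sequences were not analysed here. Alternatives were DESeq2 1.42.0, its size factors in edgeR, no filter on low counts, a replicate block, TPM, clones summed or as a random effect, and leaving out each library and each clone.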

Additional observations from a re-analysis of the deposited data

Results flagged for a closer look

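Among 64 groups of 6 libraries (32 genes in each construct) 3 had a library far from the nearest other one. The limit flags about 1 group in 20 when the 6 values are independent draws from 1 population. Each group here held 2 clones, and the 32 genes share libraries, so that rate does not apply. In all 3 groups the far library was LmnB1_16 replicate 2. AHCTF1 had 153.6 CPM there and at most 130.8 CPM in the other LmnB1 libraries, NUP155 had 118.5 CPM against 101.5 CPM, and NUP214 had 79.9 CPM against 68.0 CPM. The same library held the highest value of 17 of the 32 genes.

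Clones of the LmnB1 construct differed in 6 genes by edgeR's test of LmnB1_16 against LmnB1_6 (4 higher and 2 lower of 32, where 17.8% of all tested genes were called higher and 16.6% lower). The log2 fold change was 0.34 for NDC1, 0.27 for NUP160, 0.22 for TPR, 0.22 for NUP88, −0.19 for POM121 and −6.70 for NUP210, whose value depends on the prior count because LmnB1_16 had 0 counts. The adjusted p in edgeR was between 0.000362 for NUP210 and 0.0261 for POM121.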

How the results depend on the processing

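Between the constructs, 10 genes higher and 1 lower became 14 and 1 with DESeq2, 10 and 1 with its size factors in edgeR, 7 and 1 without a filter, 5 and 0 on TPM with limma, 0 and 0 with counts summed per clone and 0 and 0 with clone as a random effect. Over all tested genes the 1320 higher and 1423 lower became 1896 and 1845 with DESeq2, 1367 and 1415 with its size factors, 918 and 979 without a filter, 742 and 946 on TPM with limma and 755 and 893 with the replicate block. Leaving out a clone gave 6 higher and 0 lower (LmnB1_16), 2 and 0 (LmnB1_6), 19 and 0 (mCherry_4) and 0 and 1 (mCherry_3). Over all genes, leaving out those clones in that order gave 2146 higher and 2662 lower, 509 and 754, 2592 and 2366, and 268 and 379. Leaving out a library gave 3 to 16 higher and 1 lower each time, against 619 to 1498 higher and 773 to 1580 lower over all genes. With the replicate block 4 were higher (AAAS, NUP188, NUP93 and SEH1L) and 1 lower. The replicate numbers were not shown to pair libraries, since deviations of libraries with the same number correlated between −0.054 and 0.18.

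The 4 genes with every LmnB1 library above every mCherry library became 1 on TPM, 19 with counts summed per clone, and 20, 9 and 8 without mCherry_4, LmnB1_6 and LmnB1_16, and 4 to 8 without 1 library. The 0 genes below became 2 without mCherry_3 (NUP210 and SEC13) and 1 without LmnB1_6 (NUP210), and stayed at 0 without any 1 library.

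For LmnB1_16 against mCherry_4, 4 genes called either way became 7 with the replicate block and 7 with DESeq2, and 2 to 7 without 1 library. Over all tested genes the 2411 called became 2481 with the block, 2590 with DESeq2 and 1725 to 2475 without 1 library. For LmnB1_6 against mCherry_4, 7 became 4 on TPM with limma and 3 to 8 without 1 library. Over all tested genes the 5727 called in that contrast became 4182 on TPM with limma and 4827 to 6221 without 1 library. On TPM with limma, which changes the values and the test together, the counts were 15 for LmnB1_16 against mCherry_3, 11 for LmnB1_6 against mCherry_3, 8 for mCherry_4 against mCherry_3 and 3 for LmnB1_16 against LmnB1_6, where 6 were called on counts with edgeR. Without 1 library these were 20 to 24, 19 to 24, 18 to 20 and 4 to 6. Over all tested genes, in the same order, TPM with limma called 5515, 6951, 4690 and 4119. Counts with edgeR called 6838, 8122, 5752 and 5289 of all genes. Without 1 library the edgeR calls over all genes ran from 5970 to 6966, 7240 to 8560, 4701 to 6227 and 4521 to 5422. The causes were not tested. Over 11 named fold changes between the constructs with 23 alternatives each, and 6 within a construct with 17 each, 243 values kept their direction and call, 112 kept their direction and lost the call, and 0 reversed. These fold changes were chosen in the same libraries that the alternatives reuse, so their kept directions are not further evidence. A value near 0 with the same sign also counts as kept, as for NUP210 without mCherry_4. Depth limits NUP210 in the 3 clones where it is at or near 0.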

Other observations

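The deposited effective length of a gene, which reflects the mix of its transcripts, differed little between clones for the nuclear pore genes. Over the 31 genes without NUP210 the ratio of the longest to the shortest clone mean had a median of 1.05 (1.06 over all tested genes), and 5 of them reached 1.1. The largest ratio was that of NUP88, the cytoplasmic partner of NUP214, at 1.20. Its effective length was 1204 ± 88.3 bases in LmnB1_16, 1437 ± 210.3 bases in LmnB1_6, 1389 ± 18.0 bases in mCherry_4 and 1442 ± 69.8 bases in mCherry_3 (SD, n = 3 each). In TPM NUP88 was 102 ± 6.71 in LmnB1_16, 71.5 ± 11.8 in LmnB1_6, 83.4 ± 4.71 in mCherry_4 and 71.5 ± 4.10 in mCherry_3 (SD, n = 3 each). These values are uncertain, as 16.98% of the 31-base words of NUP88 also occur in RPAIN on the opposite strand. Whether counting used the strand was not given. RPAIN was lower in the LmnB1 libraries (log2 fold change −0.27, SE 0.086, edgeR adjusted p = 0.0488). It averaged 28.1 CPM in LmnB1_16, 26.2 CPM in LmnB1_6, 29.4 CPM in mCherry_4 and 36.0 CPM in mCherry_3. Against mCherry_4 it was not called in LmnB1_16 (edgeR adjusted p = 0.685) or LmnB1_6 (edgeR adjusted p = 0.151). In mCherry_4 against mCherry_3 it was called lower (log2 fold change −0.29, edgeR adjusted p = 0.0106).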
